A study of Mus musculus with 12 samples.

Results

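This section describes 114 mouse genes that moved in low glucose medium and then stood close to the same level in galactose medium. C2C12 cells, an established line of mouse myoblasts, were cultured for 24 h in 1 of 3 media: high glucose at 25 mM, low glucose at 5 mM, or galactose at 10 mM. Every medium held 1 mM pyruvate, 10% serum and 1% antibiotic, and each group had 4 libraries of polyA RNA, 12 in all. The authors' deposited table gives 1 pooled expression value per group, in FPKM (fragments mapped to a transcript, scaled by its length and by the depth of sequencing), and the authors' test of each pair of groups. A gene is said here to have risen, fallen or been called where the q-value of that test was below 0.05. No value per library was used here, so no SD can be given, the depth is unknown, and the authors' p-values describe these libraries only; no label says that these were separate cultures. In such bulk samples, fewer cells of a kind and less RNA per cell cannot be told apart.

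The 114 genes were chosen by the values themselves. Of 26271 loci in the table, 9696 had 1 gene symbol, were tested in all 3 comparisons and reached 2 FPKM in at least 1 group; these are called eligible loci. A member was at least 7/4-fold higher or lower in low glucose than in high glucose, and its value in galactose was 4/5 to 5/4 of that in low glucose. This gave 29 members higher in low glucose and 85 lower. Of the 115 eligible loci that passed 7/4-fold upward, 71 stood above 5/4 of their low glucose level in galactose, 29 were level and 15 stood below 4/5 of it. Of the 247 that passed downward, 127 stood below 4/5 of their low glucose level in galactose, 85 were level and 35 stood above 5/4 of it.

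**Figure D1:**
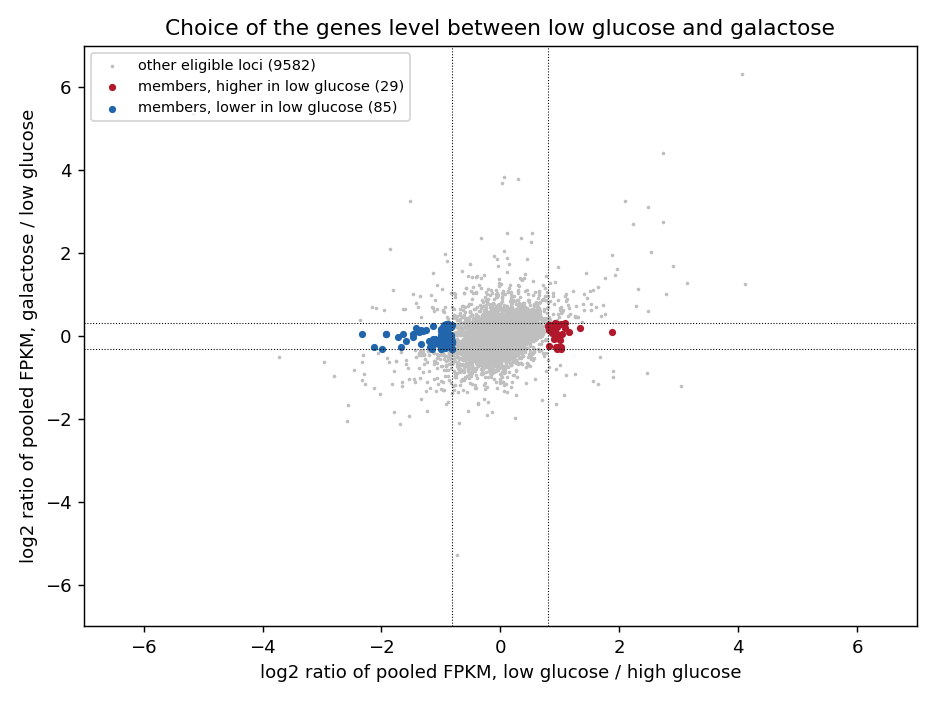
Each point is an eligible locus; the x axis is the log2 ratio of pooled FPKM in low over high glucose, the y axis that in galactose over low glucose, and dotted lines mark the thresholds. The 29 higher members (red) and the 85 lower members (blue) lie by construction in the 2 side bands, with the lower members reaching farther out, to a log2 ratio of -2.32.

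Proliferating myoblasts make energy and building blocks from glucose, and galactose enters glycolysis slowly through the Leloir pathway, so cells fed galactose are known to lean more on mitochondrial respiration. Myoblasts leave the cell cycle and fuse into myotubes under the control of myogenic transcription factors, while Notch receptors hold muscle precursors undifferentiated. The acetylcholine receptor and the proteins that cluster it are made by muscle cells before and after they meet a nerve. When amino acids run short, the transcription factor ATF4 raises genes for amino acid synthesis, transport and tRNA charging.

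Of 7 myoblast markers, 6 reached 1 FPKM and Vim is listed at 0; Cdh15 is itself a member. Myod1, the master regulator of the lineage, was at 154, 108 and 71.5 FPKM in high glucose, low glucose and galactose. Of 5 myotube markers only Acta1, skeletal muscle actin, reached 1 FPKM, at 16.1, 11.1 and 30.2 FPKM in the same order. No endothelial or epithelial marker reached 1 FPKM, and of 3 leukocyte markers Ptprc and Cd3e reached at most 0.00823 FPKM. The other leukocyte marker, Cd68, was read only in a locus shared with the translation factor gene Eif4a1, at 72.7, 96.0 and 98.6 FPKM, so its own level is not given. Of 5 fibroblast markers, 2 reached 1 FPKM: Pdgfrb, a growth factor receptor, at 52.2, 32.2 and 18.3 FPKM, and Pdgfra at 1.72, 1.37 and 1.30 FPKM. The myoblast and fibroblast lists summed to less in low glucose than in high glucose, at 537 against 792 FPKM and 34.1 against 54.7 FPKM. The myotube list, mostly Acta1, did so too, at 12.5 against 18.5 FPKM. Most of the myoblast sum lay in Des, at 456, 308 and 268 FPKM, and the fall also includes Cdh15, chosen by the rule. Ncam1 of the same list went the other way, at 46.3, 49.5 and 71.2 FPKM. The part of these sums in the members' values was not tested.

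In the authors' deposited table, 23 of the 29 higher members were called higher from high to low glucose, where 20.7% of eligible loci were, and 82 of the 85 lower members were called lower, where 19.4% were. From high glucose to galactose 25 of the 29 were called higher, against 29.5% of eligible loci, and 81 of the 85 lower, against 27%. The rule used these contrasts, so nothing is read from the counts. From low glucose to galactose 27 members were called all the same, 11 higher and 16 lower, where 18.8% and 18.5% of eligible loci were called in those directions. In all, 77 members were called in both comparisons with high glucose and not between low glucose and galactose. The rule favours this pattern and its share over all eligible loci was not counted, so nothing is read from it either. The 3 comparisons share their groups and are not independent of each other.

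The higher members were mostly expressed at moderate to high levels. Their largest group value had a median of 27.3 FPKM, against 4.64 FPKM for the lower members and 16.3 FPKM for all eligible loci. The median higher member stood 1.93-fold above high glucose in low glucose and 2.03-fold above it in galactose. The median lower member was 1.96-fold lower in low glucose, with a galactose value of 0.960 of that in low glucose. A fold of at least 2 was reached by 10 of the 29 higher and 34 of the 85 lower members, and a fold of at least 3 by 1 and 9. Below, members are described by what they are known to do, in groups made after the members were known.

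Chrnd and Lrp4, 2 genes of the neuromuscular junction, were lower in both other media. Chrnd, the delta subunit of the muscle acetylcholine receptor (chr1:87190583-87200150), was at 8.41 FPKM with high glucose, 2.70 with low glucose and 2.81 with galactose. It fell 3.11-fold and had no call between low glucose and galactose, with q = 0.693 in the authors' deposited table. Lrp4, the receptor for the nerve-derived organiser agrin, was at 12.2, 6.51 and 6.25 FPKM in the same order. Among 12 eligible genes of the junction list these were the 2 members, and only 1 other gene was at least 7/4-fold lower in low glucose. That gene was Chrng, the fetal gamma subunit, at 3.33, 0.751 and 1.22 FPKM, and the authors' deposited table called it higher from low glucose to galactose (q = 0.000239). The alpha and beta subunits fell less: Chrna1 was at 154, 112 and 100 FPKM, and Chrnb1 at 32.9, 21.6 and 19.1 FPKM. Rapsn, which anchors the receptor, was at 85.6, 69.3 and 69.2 FPKM, also level between low glucose and galactose but with a fold of 1.23 outside the rule. Musk, the kinase that works with Lrp4, went on down, at 16.6, 13.3 and 7.62 FPKM. Over the list 8 of 12 genes were called lower and 1, Etv5, higher from high to low glucose, where 19.4% and 20.7% of eligible loci were. Agrn, Nrg1 and Prkar1a had no call there. The list's median log2 ratio was -0.39 against 0.02 for all eligible loci.

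Another 5 of the muscle members were cell contact and membrane genes. Cdh15, M-cadherin, the adhesion molecule of myoblasts (chr8:122848324-122869193), was the most abundant of them, at 104 FPKM with high glucose, 46.7 with low glucose and 37.7 with galactose. It sat near the lower edge of the band and fell again from low glucose to galactose (q = 0.000239 in the authors' deposited table). Dysf, which reseals torn muscle membrane, was at 3.22, 1.62 and 1.81 FPKM. Ank1, an ankyrin that links the sarcoplasmic reticulum to the contractile apparatus, was at 6.88, 3.23 and 2.90 FPKM. A smaller Ank1 locus at the same place, outside the rule, was at 1.98, 1.86 and 1.23 FPKM, and strand is not given. Drp2 and Sntb1 belong to the dystrophin family and its syntrophin partners. Drp2 was at 12.8, 7.01 and 6.18 FPKM and Sntb1 at 2.35, 1.30 and 1.32 FPKM.

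Of 22 eligible genes in the sarcomere list, 10 were at least 7/4-fold lower in low glucose: 3 were members, 6 stood above 5/4 of their low glucose value in galactose, and 1 stood below 4/5 of it. The members were Ldb3 and Synpo2, both Z-disc proteins, and Dysf. Ldb3 was at 4.88, 2.57 and 2.23 FPKM. Synpo2 was at 8.90, 4.97 and 4.18 FPKM and fell again in galactose (q = 0.00266 in the authors' deposited table). Of those above the band, the fast myosin light chain Mylpf was at 12.8, 7.18 and 14.8 FPKM and the M-band gene Myom2 at 1.93, 1.02 and 4.0 FPKM. Both were back at or above their high glucose level, as was Tnnt3, at 1.92, 0.874 and 2.52 FPKM. Tnnt3 was not called from high to low glucose (q = 0.0783 in the authors' deposited table). Others stood below it in pooled value: Tnni1 was at 3.87, 2.03 and 3.32 FPKM, Tnnt1 at 5.99, 1.16 and 1.52 FPKM, and Synpo2l at 3.58, 0.843 and 1.34 FPKM. Tnni1 had no call from high glucose to galactose (q = 0.144 in the authors' deposited table). Tnnt1 had none from low glucose to galactose (q = 0.0851 in the authors' deposited table). The list's median log2 ratio was -0.72 from high to low glucose and 0.48 from low glucose to galactose, against 0.02 and 0.01 for all eligible loci. Jsrp1, a protein of the sarcoplasmic reticulum outside the list, was at 13.2, 6.63 and 5.38 FPKM. Dusp27, a muscle phosphatase-like protein, was at 4.59, 1.82 and 1.58 FPKM, and Lmod1, which starts actin filaments, at 2.35, 0.846 and 0.830 FPKM. Lmod1 also has a smaller locus outside the band, at 1.67, 0.534 and 0.729 FPKM. Sh3bgr, a gene of striated muscle, was at 3.04, 1.52 and 1.65 FPKM. In all 13 members were grouped as muscle structure, junction or dystrophin complex, 1.79 to 3.11-fold lower. From low glucose to galactose 3 of them had a call in the authors' deposited table, all lower, where 18.5% of eligible loci were called lower.

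Promoters of a few lower members were picked for display because they carry letters known as sites of muscle transcription factors. RefSeq windows (250 bases before to 50 after the most upstream annotated start, build GRCm38.p6, the build of the deposited table) were found for 65 of 85 lower and 22 of 29 higher members. Since fewer than 80% matched, no share of members with a motif is read. The 100 bases before the start are printed 5′ to 3′ on the gene's strand, with the motif in capitals. Of those shown, 3 carry the MEF2 element, which occurred in 1.47% of the windows of eligible loci and 3.29% of all 27025 windows: Ckb (chr12:111672339-111672438, minus strand), Dusp27 (chr1:166127899-166127998, minus strand) and Tcea3 (chr4:136247857-136247956, plus strand). Another 2 carry CAGCTG, a form of the E-box bound by myogenic factors, found in 14.0% of eligible and 16.1% of all windows: Lmod1 (chr1:135324713-135324812, plus strand) and Pdcd4 (chr19:53892131-53892230, plus strand).
Ckb: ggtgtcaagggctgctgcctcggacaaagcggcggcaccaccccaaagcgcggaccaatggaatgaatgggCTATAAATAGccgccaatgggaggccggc
Dusp27: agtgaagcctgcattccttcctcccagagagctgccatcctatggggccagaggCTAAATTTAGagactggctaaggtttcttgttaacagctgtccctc
Tcea3: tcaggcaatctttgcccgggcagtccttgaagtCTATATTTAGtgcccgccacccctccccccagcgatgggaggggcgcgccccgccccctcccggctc
Lmod1: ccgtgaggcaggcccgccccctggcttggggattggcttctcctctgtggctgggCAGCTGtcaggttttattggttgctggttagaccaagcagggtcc
Pdcd4: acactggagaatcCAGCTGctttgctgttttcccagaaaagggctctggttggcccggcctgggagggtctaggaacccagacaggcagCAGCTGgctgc
The element begins 29 bases before the start in Ckb, where it overlaps the TATA box letters TATAAA, 46 bases before it in Dusp27 and 67 in Tcea3. Dusp27 also holds CAGCTG, in lower case here, 12 bases before its start, and Pdcd4 holds it at 87 and 11 bases. CAGCTG and the MEF2 letters were searched on both strands, and a match is a description, not a bound site. CAGCTG was found in 15 of 65 lower and 7 of 22 higher windows, the latter including Slc7a1, Tars and G0s2. CAGCTG thus occurs in windows of both directions. The MEF2 element was in 4 of 65 lower windows, including Synpo2, where it lies upstream of the 100 bases, and in 0 of 22 higher windows. With so few members matched, these counts are descriptions only. Ckb, the brain-type creatine kinase, was at 16.2, 8.54 and 9.63 FPKM in high glucose, low glucose and galactose. Tcea3, a transcription elongation factor, was at 3.94, 2.15 and 2.0 FPKM, and Pdcd4, an inhibitor of translation initiation, at 6.07, 3.09 and 3.1 FPKM.

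Notch pathway genes gave a receptor and a Hes-family factor. Notch3, a receptor that restrains muscle precursors, was at 12.9 FPKM with high glucose, 4.80 with low glucose and 5.46 with galactose; it fell 2.69-fold and rose slightly between the last 2 media (q = 0.0322 in the authors' deposited table). Hes6, a hairy-related factor that promotes myoblast differentiation, was at 49.4, 21.6 and 19.8 FPKM, a 2.29-fold fall with no call between low glucose and galactose (q = 0.180 in the authors' deposited table). Hes1, the classic Notch target, was also lower in both other media without reaching the fold, at 69.2, 43.1 and 44.2 FPKM. The ligand gene Jag2 was likewise level, at 36.6, 27.7 and 28.0 FPKM. Notch1 was at 9.74, 5.57 and 4.05 FPKM and went on down. Of 15 eligible genes in the list, 9 were called lower and 3 higher from high to low glucose, where 19.4% and 20.7% of eligible loci were. The list's median log2 ratio was -0.30.

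A pair of further members act around Notch. Neurl1b, an E3 ligase for Notch ligands, was at 2.01, 1.06 and 1.09 FPKM, just above the floor of the rule. Numbl, a Numb-like adaptor, entered through a minor locus at 5.53, 3.09 and 3.15 FPKM, not called from high to low glucose (q = 0.105 in the authors' deposited table). The main Numbl locus, at 15.0, 11.7 and 14.9 FPKM, was back at its high glucose level in galactose, so the symbol as a whole does not follow the rule.

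A group of 7 transcription genes among the lower members, which leaves out Hes6, had largest values of 2.22 to 10.4 FPKM. Cebpa, a factor of fat and blood cell differentiation, was at 8.59, 3.48 and 3.80 FPKM, 2.46-fold lower in low glucose. Smad3, which carries TGF-beta signals, was at 10.4, 5.92 and 5.47 FPKM. E2f2, a cell cycle factor, was at 6.29, 3.50 and 2.96 FPKM and was the only member of 38 eligible replication genes. The other members of this kind were Nfatc4, Six5, Tle6 and Tcea3. All 7 were called lower from high to low glucose, a contrast the rule used, where 19.4% of eligible loci were called lower. Only E2f2 was called again from low glucose to galactose (q = 0.00996 in the authors' deposited table), where 18.5% of eligible loci were called lower.

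The most abundant lower member was H19, an imprinted long noncoding RNA that hosts a microRNA (chr7:142575526-142578169). It stood at 793 FPKM with high glucose, 210 with low glucose and 217 with galactose, a 3.78-fold fall that was then level (q = 0.591 from low glucose to galactose in the authors' deposited table). Its imprinted neighbour Igf2, a growth factor, was at 4.50, 2.31 and 3.54 FPKM and rose again in galactose. Igfbp5, a secreted binding protein of the insulin-like growth factors and an abundant product of myoblasts, was at 224, 89.1 and 97.8 FPKM. Igfbp4 fell further in low glucose and did not stay there, at 4.93, 1.40 and 3.05 FPKM. Of 14 eligible genes in this growth factor list 4 were at least 7/4-fold lower in low glucose: H19 and Igfbp5 were level in galactose, and Igf2 and Igfbp4 were above the band. Neat1, the scaffold RNA of paraspeckles, was at 78.1, 39.0 and 39.4 FPKM, and Malat1, the RNA gene beside it, at 83.7, 58.2 and 71.9 FPKM. Mest and Peg3as, both imprinted, were at 2.87, 1.09 and 1.19 FPKM and at 11, 5.63 and 4.69 FPKM; each overlaps another gene (Copg2 and Peg3), and the counting is not stated to use strand.

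**Figure D2:**
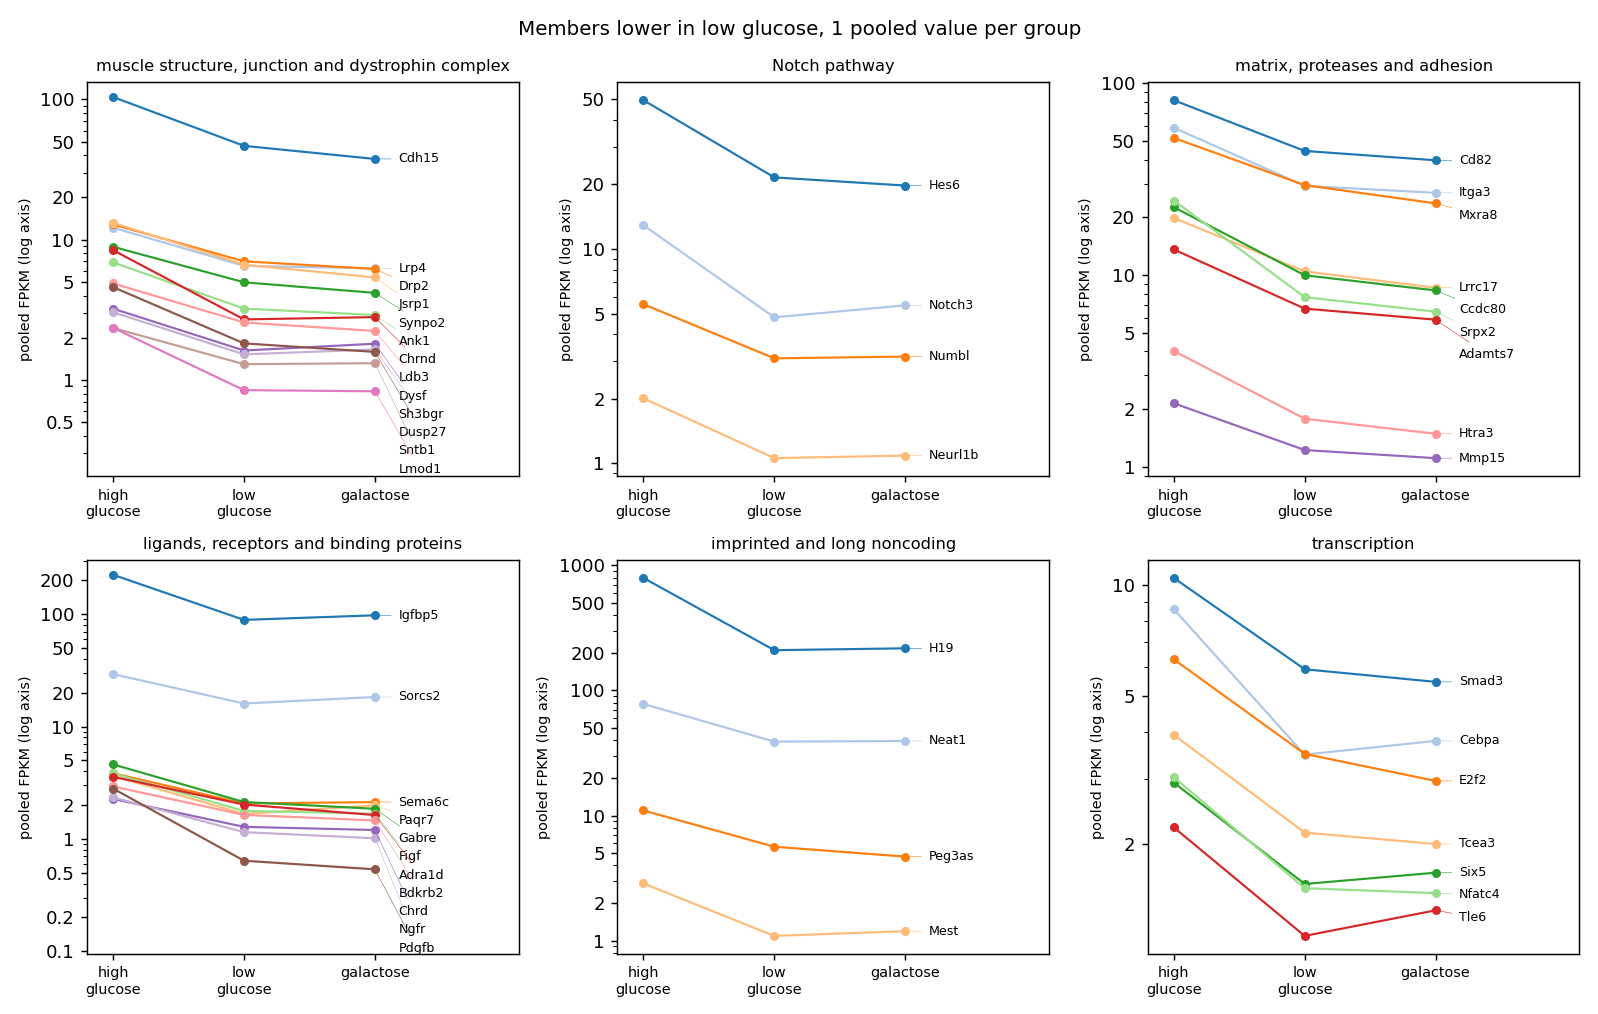
Pooled FPKM on a log axis in high glucose, low glucose and galactose for 6 groups of lower members, 1 line per gene. By construction the drop lies between high and low glucose in every panel. H19 at the top of its panel goes from 793 to 210 and 217 FPKM, while lines of the matrix panel tilt further down in galactose.

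Among ligands and receptors the largest fold was that of Pdgfb, the B chain of platelet-derived growth factor, at 2.81 FPKM with high glucose, 0.640 with low glucose and 0.536 with galactose. This was a 4.38-fold fall, with q = 0.247 between low glucose and galactose in the authors' deposited table. Its receptor gene Pdgfrb followed another course, falling in both steps. Figf, which encodes VEGF-D, was at 3.83, 1.78 and 1.68 FPKM. Ngfr, the low-affinity neurotrophin receptor, was at 2.35, 1.15 and 1.01 FPKM. Sorcs2, a sorting receptor that pairs with it, was more abundant at 29.3, 16 and 18.3 FPKM and rose between the last 2 media (q = 0.0142 in the authors' deposited table). Sema6c, a guidance cue, was at 3.84, 2.07 and 2.13 FPKM, and Chrd, the BMP antagonist chordin, at 2.27, 1.28 and 1.2 FPKM. Bdkrb2, a bradykinin receptor, was at 2.93, 1.64 and 1.46 FPKM; its sister gene Bdkrb1 went on down, at 5.13, 2.64 and 1.07 FPKM. Adra1d, an adrenergic receptor, was at 3.57, 2.02 and 1.63 FPKM and was not called (q = 0.470 in the authors' deposited table). Its deposited interval of 477413 bases overlaps several other expressed loci, among them Cdc25b and Mavs. This group of 11 was completed by Igfbp5, described above, and by Gabre and Paqr7, which were both below 5 FPKM.

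Matrix and adhesion members lay low in the band. All 9 were lower in galactose than in low glucose, at 0.803 to 0.920 of it. In that comparison 6 of the 9 were called lower in the authors' deposited table, where 18.5% of eligible loci were called lower. Srpx2, a secreted sushi-repeat protein, was at 24.5, 7.67 and 6.44 FPKM, a 3.19-fold fall from high to low glucose. Itga3, the alpha-3 integrin chain that binds laminin, was at 58.7, 29.2 and 26.9 FPKM and had no call between low glucose and galactose. Cd82, a tetraspanin of muscle precursors, was at 81.7, 44.4 and 39.7 FPKM (q = 0.0458 between low glucose and galactose in the authors' deposited table). Mxra8, a matrix-associated surface protein, was at 51.9, 29.5 and 23.7 FPKM. Ccdc80, a secreted matrix protein, was at 22.6, 9.98 and 8.32 FPKM, and Lrrc17, a leucine-rich repeat protein, at 19.8, 10.5 and 8.59 FPKM. The proteases Adamts7, Htra3 and Mmp15 were at 13.6, 6.69 and 5.85 FPKM, at 4.02, 1.78 and 1.49 FPKM and at 2.14, 1.22 and 1.11 FPKM. Of the 7 eligible matrix glycoprotein genes at least 7/4-fold lower in low glucose, Srpx2 was the only member and the other 6 went below 4/5 of their low glucose value in galactose. All 4 collagen genes past that fold did the same, so no collagen was a member.

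**Figure D3:**
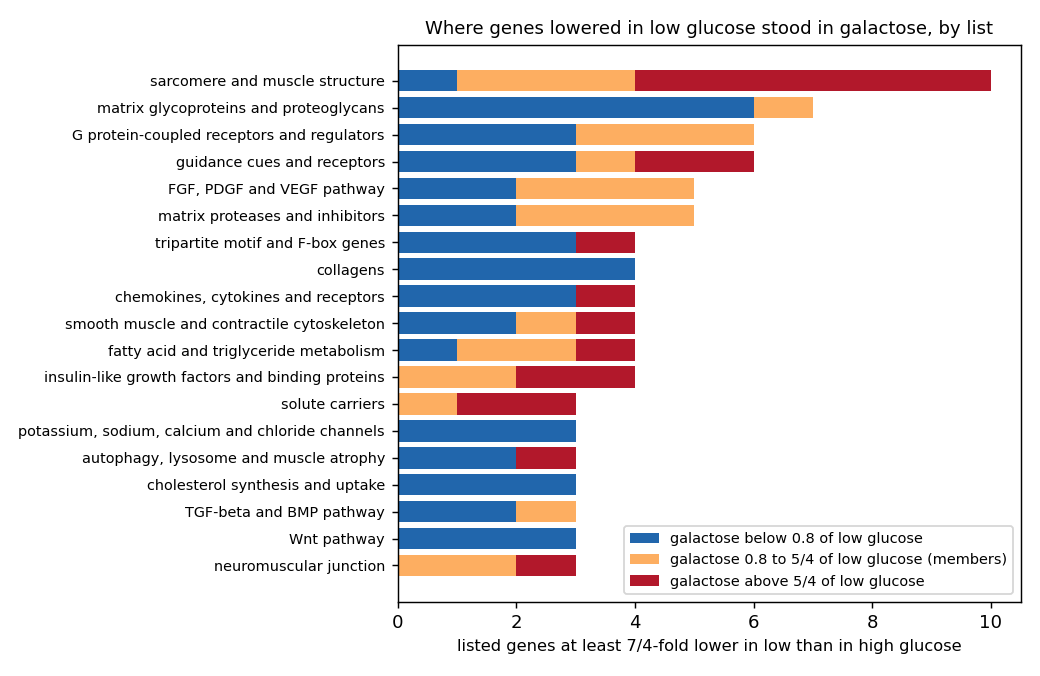
Horizontal bars count, for each list with at least 3 genes at least 7/4-fold lower in low than in high glucose, where these genes stood in galactose. Members (orange) were 3 of 10 in the sarcomere list, where 6 stood above the band, and 1 of 7 among matrix glycoproteins, where 6 stood below it; the receptor list includes the protease Htra3, taken up by its name.

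Enzymes and transporters held the largest fold of all members. Dhrs3, a retinaldehyde reductase that limits retinoic acid, was at 8.35 FPKM with high glucose, 1.67 with low glucose and 1.72 with galactose, 4.99-fold lower and then level. Slc1a3, a glutamate and aspartate transporter, was at 9.09, 2.28 and 1.83 FPKM, on the edge of the band; a second Slc1a3 locus at 6.42, 2.15 and 1.43 FPKM lay outside it. Aldh3b1, an aldehyde dehydrogenase, was at 6.76, 2.04 and 2.0 FPKM. Pdk2, a kinase that switches off pyruvate dehydrogenase, was at 3.70, 1.84 and 1.77 FPKM. St3gal5, the synthase of the ganglioside GM3, was at 24.6, 12.8 and 10.4 FPKM and fell again (q = 0.000456 in the authors' deposited table). The group of 11 also held Acad11, Enpp3, Abca3, Duoxa1 and Stard10, and the largest value among the 11 was the 24.6 FPKM of St3gal5.

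The remaining lower members were 18 genes of kinases, trafficking or other roles, 4 of immune roles and 4 with clone names. Kbtbd11, a Kelch protein, was the farthest out, at 8.22, 2.16 and 2.24 FPKM. Dyrk1b, a kinase that slows the myoblast cell cycle, was at 4.95, 1.79 and 1.86 FPKM. The other 16 of that group were Asap3, Capn6, Cdk5r1, Dopey2, Fam117a, Frmpd1, Gatsl2, Iffo1, Nckap5l, Palm3, Pdcd4, Rab3il1, Rcan2, Scara3, Tmem53 and Wbscr27. All 18 were called lower from high to low glucose, a contrast the rule used, where 19.4% of eligible loci were called lower. Capn6 (lower) and Fam117a (higher) were called from low glucose to galactose, with q = 0.00232 and 0.0168 in the authors' deposited table. In that comparison 18.5% of eligible loci were called lower and 18.8% higher. Tap2, a subunit of the peptide transporter of antigen presentation, was at 2.29, 0.887 and 0.950 FPKM. The other 3 immune genes, Unc93b1, Tnfaip8l1 and Stap2, were 1.90 to 1.95-fold lower, and none had a call between low glucose and galactose. Those with clone names were Ncrna00085, 1700052N19Rik, F730043M19Rik and 1700003F12Rik, named after their values were seen. Their member loci were at most 3.61 FPKM in any group. A larger 1700052N19Rik locus outside the rule was at 9.70, 10.2 and 8.82 FPKM, not called from high to low glucose (q = 0.531 in the authors' deposited table). That symbol as a whole does not follow the rule.

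On the higher side, genes of amino acid supply and tRNA charging made up 6 of the 29 members. Psat1, the aminotransferase of serine synthesis (chr19:15904658-15925059), was at 99.7 FPKM with high glucose, 212 with low glucose and 241 with galactose. Tars, Iars and Cars charge tRNAs with threonine, isoleucine and cysteine. They were at 78.7, 149 and 185 FPKM, at 39.0, 68.3 and 81.4 FPKM, and at 33.5, 61.9 and 74.0 FPKM. Bcat1, the cytosolic branched-chain aminotransferase, was at 16.4, 34.8 and 43.5 FPKM. Slc7a1, the transporter of arginine and lysine, was at 18.3, 33.6 and 37.1 FPKM.

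These 6 genes were level only within the width of the band. All stood higher in galactose than in low glucose, at 1.1 to 1.248 of it. In that comparison 5 were called higher in the authors' deposited table, Slc7a1 being the exception, where 18.8% of eligible loci were called higher. In the amino acid response list, 37 of 49 eligible genes were at least 7/4-fold higher in low glucose and 32 of those stood above 5/4 of that level in galactose; the 5 members (Psat1, Tars, Iars, Cars and Slc7a1) were the rest. The list's median log2 ratio was 1.02 from high to low glucose and 0.69 from low glucose to galactose.

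Promoters of higher members are shown for 2 kinds of letters. TGATGNAA, the composite element of C/EBP and ATF factors, was in 2.14% of eligible and 4.06% of all windows, and CACGTG, an E-box bound by MYC and other basic helix-loop-helix factors, in 10.9% and 7.24%; both were searched on both strands. Tars (chr15:11399659-11399758, minus strand) carries the first on its opposite strand, so that its own strand spells TTGCATCA. Iars (chr13:49682030-49682129, plus strand), Orai2 (chr5:136170657-136170756, minus strand) and Zfp292 (chr4:34882949-34883048, minus strand) carry the second.
Tars: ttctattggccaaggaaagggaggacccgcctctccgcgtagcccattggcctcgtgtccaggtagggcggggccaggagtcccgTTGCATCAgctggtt
Iars: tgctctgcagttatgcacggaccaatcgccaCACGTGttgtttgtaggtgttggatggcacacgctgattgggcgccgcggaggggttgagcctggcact
Orai2: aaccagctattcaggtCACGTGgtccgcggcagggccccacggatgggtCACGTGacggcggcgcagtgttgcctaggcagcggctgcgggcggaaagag
Zfp292: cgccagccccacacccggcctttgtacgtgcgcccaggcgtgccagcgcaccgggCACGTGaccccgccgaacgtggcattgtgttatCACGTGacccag
The element begins 15 bases before the start in Tars, where its last bases overlap a CAGCTG. The other letters, those of the MYC-type E-box, begin 69 bases before the start in Iars, 84 and 51 in Orai2, and 45 and 12 in Zfp292. TGATGNAA also occurs at positions 8 and 22 after the start in Iars and Nop14, which are not printed. Lower members hold both kinds of letters too. TGATGNAA was in 3 of 22 higher and 1 of 65 lower windows, and CACGTG in 7 of 22 and 6 of 65. With so few members matched, these counts are descriptions only.

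Of 6 receptor and signalling genes on the higher side, 4 stood lower in galactose than in low glucose. A call was given to 2 of them, where 18.5% of eligible loci were called lower. Gpr56 and Gpr97, adhesion-type receptors that share 1 deposited interval, were at 7.80, 17.4 and 18.5 FPKM and at 58.5, 103 and 87.9 FPKM. Gpr97 fell from low glucose to galactose (q = 0.00896 in the authors' deposited table), while Gpr56 had no call. Orai2, a store-operated calcium channel, was at 13.3, 26.2 and 21.5 FPKM and also fell (q = 0.000239 in the authors' deposited table). Fgf2, a mitogen that keeps myoblasts dividing, was at 2.44, 4.98 and 4.04 FPKM, with no call between low glucose and galactose (q = 0.266 in the authors' deposited table). The Fgf2 locus overlaps that of Nudt6. Rap1gap2, an inhibitor of the small GTPase Rap1, was at 1.92, 3.86 and 3.60 FPKM, and Tnfrsf21, a death receptor, at 6.13, 11.2 and 11.8 FPKM. Among gene regulators, the homeobox gene Dlx2 was at 15.2, 31.1 and 25.8 FPKM and fell from low glucose to galactose (q = 0.000456 in the authors' deposited table). Taf4b, a subunit of the general factor TFIID, was at 1.47, 2.74 and 2.63 FPKM, and the zinc finger gene Zfp292 at 4.42, 9.05 and 9.34 FPKM without a call from high to low glucose (q = 0.0872 in the authors' deposited table).

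**Figure D4:**
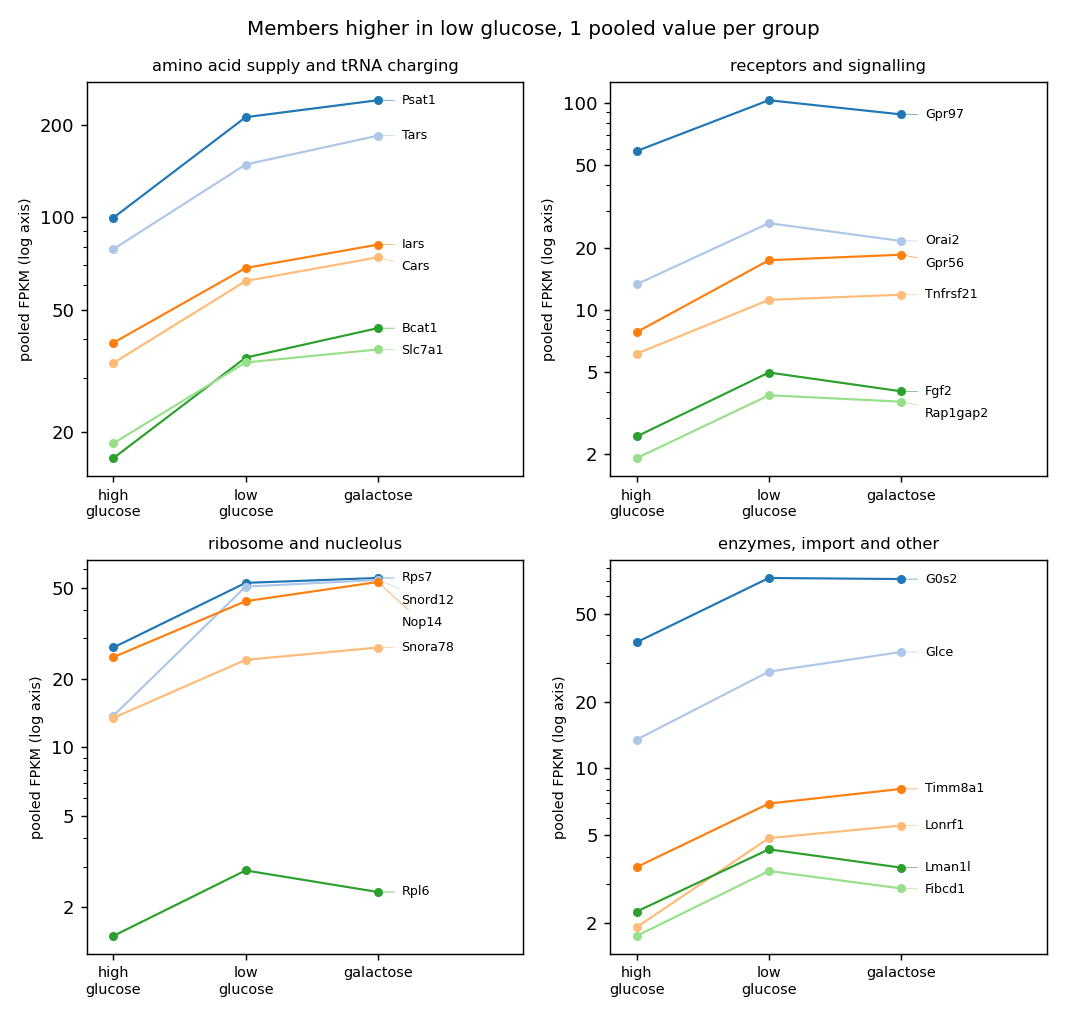
Pooled FPKM on a log axis in high glucose, low glucose and galactose for 4 groups of higher members, 1 line per gene. By construction all lines go up from high to low glucose. Those of the amino acid group go on upward, to 1.1 to 1.248 of low glucose, while Gpr97, Orai2, Fgf2 and Rap1gap2 stand lower in galactose.

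G0s2, an inhibitor of the lipase that opens triglyceride stores, was at 37.1, 72.3 and 71.5 FPKM, and its galactose to low glucose ratio of 0.989 was the nearest to 1 of all 29. Glce, an epimerase of heparan sulfate, was at 13.5, 27.3 and 33.5 FPKM, and Timm8a1, a chaperone of mitochondrial import, at 3.59, 6.95 and 8.09 FPKM. Lonrf1, with a LON domain and RING finger, had the largest fold among called higher members, at 1.93, 4.85 and 5.53 FPKM, or 2.52-fold. Fibcd1 and Lman1l were at 1.76, 3.45 and 2.88 FPKM and at 2.26, 4.32 and 3.57 FPKM.

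Ribosomal and nucleolar members rested in part on small or shared loci. Nop14, which helps to mature the small ribosomal subunit, was at 24.8, 43.6 and 52.9 FPKM and rose in both steps. Rps7, a protein of that subunit, was at 27.3, 52.4 and 55.1 FPKM and was the single gene of 67 eligible ribosomal protein genes past 7/4-fold; the median log2 ratio of that list was 0.26. Rpl6 entered through a minor locus at 1.5, 2.90 and 2.33 FPKM that was not called, while its main locus was at 147, 195 and 218 FPKM. Mex3c, an RNA-binding ubiquitin ligase, likewise has a larger locus outside the rule, at 13, 16 and 15.5 FPKM against 8.41, 14.9 and 16.4 FPKM for the member. The largest ratio of all, 3.67, was that of Snord12, a small nucleolar RNA inside another gene, with q = 0.742 in the authors' deposited table. The predicted gene Gm2897 had the highest values of all higher members, at 255, 496 and 612 FPKM. Neither Snora78, of the same class as Snord12, nor Gm2897 was called from high to low glucose (q = 0.216 and 0.288 in the authors' deposited table). The last member, the predicted gene Gm2027, was at 1.247, 2.2 and 2.67 FPKM; these small and predicted genes are named after their values were seen.

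The 9 members without a call from high to low glucose in the authors' deposited table were Numbl, Adra1d and 1700003F12Rik on the lower side and Snord12, Snora78, Rpl6, Gm2897, Zfp292 and Mex3c on the higher side. Galactose lay within 0.9 to 1/0.9 of low glucose for 54 of the 114 members. Near the thresholds, Iars was just inside at 1.753-fold higher and Rnd1 just outside at 1.733. Mmp15 was inside at a low to high glucose ratio of 0.5702 and Mgat3 outside at 0.5738. Slc1a3 and Ppp1r14c lay on either side of the lower edge of the band, at 0.801 and 0.796, and Bcat1 and Cebpg on either side of the upper edge, at 1.248 and 1.265. Neurl1b with 2.01 FPKM and Slc43a2 with 1.91 FPKM lay on either side of the floor.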

How the data were processed

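RNA of C2C12 myoblasts was sequenced as polyA libraries, 4 per group; groups were taken from the sample labels, while the series' design text describes muscle stem cells cultured for 96 h. The submitters' processing notes name TopHat2 (2.0.10), Cufflinks (2.2.0), Cuffdiff and the mouse build mm10; settings, strand and scaling between libraries are not given in the sources used here. The deposited table holds 1 pooled FPKM per group as written by the authors' tool, with a deposited log2 fold change, p-value and q-value for each pair of groups. The authors' q-value equals the Benjamini-Hochberg adjustment over all 44006 tests of status OK, recomputed within a relative deviation of 4.7e-06. No values per library were used, so no test was rerun; depth is unknown.

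Ratios were taken of the authors' FPKM without a pseudocount. The rule was tested on a simulated table. Start positions were raised by 1: of 20787 loci whose symbol RefSeq lists, 8205 then equal its start. Overlapping loci share 1 interval (33 members do), and 12 members have another locus of their symbol, of which 4 are larger. The members, 51 gene lists and 20 motifs were chosen with earlier results of these data known; the role groups, and the list of imprinted genes, were made after the members were seen. List counts use each symbol's most abundant locus. Named genes are the 12 largest and 12 smallest low to high glucose ratios, the 8 most abundant in each direction, all members in a list, members within 500 kb of another, and the 3 loci nearest each threshold; other members are named to account for all 114. Alternatives changed the floor, fold, band, pseudocount, centring, symbols admitted and q. Python 3.11.15, pandas 2.3.3, numpy 2.4.6 and matplotlib 3.10.9 were used.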

Additional observations from a re-analysis of the deposited data

How the results depend on the processing

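No paired analysis was possible because the table holds 1 pooled value per group and no replicate values, and for the same reason no library could be left out. The 29 higher members became 93 at a fold of 1.5, 10 at a fold of 2, 10 in a band of 0.9 to 1/0.9, 50 in a band of 2/3 to 1.5, 16 with a pseudocount of 1 FPKM, 11 where a call from high to low glucose and none from low glucose to galactose was also asked for, and 87 with loci of several symbols or none. The 85 lower members became 40 at a floor of 5 FPKM, 151 without a floor, 189 and 34 at folds of 1.5 and 2, and 44 and 142 in the narrower and wider band. The other settings stayed within 1.5 times of the counts; among them the pseudocount gave 63 lower members, 39 of them shared. A pseudocount of 1 FPKM took 60 of the 114 members under the fold of the rule, and re-centring on the median took 4; neither reversed a direction. With re-centring of both ratios, 25 of the 29 higher and 83 of the 85 lower members stayed in the rule. Members called from high to low glucose numbered 105, and 103 at q below 0.01; between low glucose and galactose 27 became 18. Leaving out small and predicted names (25 and 81 members) and overlapping loci (22 and 69) was chosen after seeing the data. Low FPKM limits the ratios: 45 of the 85 lower members stayed below 5 FPKM in every group, and their counts of reads are unknown.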

Other observations

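Some members lay side by side in the genome. On chromosome 4, E2f2, Asap3 and Tcea3 were adjacent, with gaps of 9696 and 1307 bases and no other eligible locus between them, and all 3 were lower in low glucose (6.29, 3.50 and 2.96 FPKM for E2f2, 4.18, 2.38 and 2.14 for Asap3, an Arf GTPase activator, and 3.94, 2.15 and 2.0 for Tcea3, in high glucose, low glucose and galactose). On chromosome 11, Pdk2 and Itga3 were 3078 bases apart, and Fam117a and Ngfr lay farther along, so that all 4 were lower but not all adjacent. The gap from Itga3 to Fam117a was 260304 bases and held the eligible loci Dlx3 and Kat7, which are not members. That from Fam117a to Ngfr was 186949 bases and held Slc35b1 and Spop, likewise not members. On chromosome 19, Aldh3b1 and Unc93b1, a chaperone of Toll-like receptors, were 5460 bases apart, and Unc93b1 was at 2.57, 1.35 and 1.57 FPKM. Neighbours also went in opposite directions: on chromosome X, Srpx2 and Drp2 were lower and Timm8a1, 80653 bases beyond Drp2, was higher. How often neighbours would be chosen together without any link between them was not tested.

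Imprinted genes were listed after the members had been seen. Of 20 eligible ones, 7 were at least 7/4-fold lower and none higher in low glucose; 3 of the 7 (H19, Mest and Peg3as) were level in galactose, 3 went below 4/5 of their low glucose value and 1, Igf2, stood above 5/4 of it. Among those that went on down was Peg3, at 29.2, 14.8 and 8.98 FPKM, whose antisense gene Peg3as was at 11, 5.63 and 4.69 FPKM. From high to low glucose, 10 of the 20 were called lower and 1 higher in the authors' deposited table, where 19.4% and 20.7% of eligible loci were. Their median log2 ratio was -0.24 against 0.02 for all eligible loci. Since the list was made with these values known, its count is a description.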
